A study of Homo sapiens with 6 samples.

Results

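Polypyrimidine tract-binding proteins and their co-factors were followed as 6 genes, namely the paralogs PTBP1, PTBP2 and PTBP3 and the co-repressors RAVER1, RAVER2 and MATR3. They were found by gene name in a count table of 58735 genes, where they take 7 rows because 2 gene records carry the name MATR3. The set was chosen with measured values in view: PTBP2 was selected on its high siSON level in the comparison described here, and its relatives were added by name. The differences of the 6 genes between the groups are therefore given as a description, with no test.

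The 6 libraries came from RPE-1, a human retinal pigment epithelial line, engineered with a GFP tag on the centriole protein CETN2 and a doxycycline-controlled PLK4 gene. In the siControl group (n = 3) the cells received a scramble siRNA, and in the siSON group (n = 3) an siRNA against the splicing factor SON. All 6 cultures were given 1 µg/mL doxycycline to induce PLK4, so that there was no group without induction. The labels name no separate clones or culture days, so p-values measure only the spread between these libraries, which may be partly technical.

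PTBP proteins bind pyrimidine-rich stretches of pre-mRNA and mostly keep nearby exons out of the mature message. PTBP1 is found in most dividing cells, PTBP2 is the form of neurons, and PTBP3 was first described in blood cells. PTBP1 keeps a short exon out of the PTBP2 message, and the shortened message is removed by nonsense-mediated decay; it acts on the matching exon of its own message in the same way. Raver proteins and matrin 3, the product of MATR3, bind PTBP1 and help it to repress exons.

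That exon, the point of control described above for PTBP2 and PTBP1, is shown here with the matching exon of PTBP3 for comparison. In GENCODE release 29 (GRCh38) it is exon 10 of 14 in the coding transcript of each paralog with the longest reading frame, and it has 34 bases, which leaves a remainder of 1 base after division by 3, so that leaving it out shifts the reading frame. The capitals mark the exon and the lower case marks 24 bases of each neighbouring exon, written 5′ to 3′ along the transcript.
PTBP1: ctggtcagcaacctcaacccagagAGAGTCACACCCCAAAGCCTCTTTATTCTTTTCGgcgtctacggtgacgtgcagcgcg
PTBP2: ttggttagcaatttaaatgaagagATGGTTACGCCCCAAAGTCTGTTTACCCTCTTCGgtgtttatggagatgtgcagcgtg
PTBP3: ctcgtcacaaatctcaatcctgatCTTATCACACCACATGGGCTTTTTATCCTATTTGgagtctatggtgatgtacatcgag

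The exon lies at chr19:807869-807902 (plus strand) in PTBP1, at chr1:96806419-96806452 (plus strand) in PTBP2 and at chr9:112231380-112231413 (minus strand) in PTBP3. PTBP1 and PTBP2 share 25 of its 34 bases, PTBP1 and PTBP3 share 22, and PTBP2 and PTBP3 share 21. The annotation has transcripts that pass over this exon for PTBP1 (5 of 21 transcripts, among them both of its transcripts typed as nonsense-mediated decay) and for PTBP2 (3 of 11), and none of the 8 transcripts of PTBP3 does so. Of those that pass over it, the remaining PTBP1 transcripts are typed as protein coding and all of PTBP2 as processed transcripts. Gene counts add all these forms together, so inclusion of the exon was not measured here.

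Unbroken identical stretches between the paralogs were short. The longest stretch that any transcript of one shares exactly with any transcript of another, in the sense orientation, was 14 bases for PTBP1 and PTBP2, 17 bases for PTBP1 and PTBP3 and 21 bases for PTBP2 and PTBP3. The processed pseudogene PTBP1P had 1 count in siControl replicates 1 and 2 and 0 counts in the other libraries.

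The SON siRNA was checked first. The siControl libraries, in the order of their replicate numbers 1 to 3, held 295, 313 and 284 CPM of SON RNA, and the siSON libraries held 68.0, 70.0 and 65.0. CPM is a gene's count relative to its library's total, here after TMM scaling, which sets libraries to a common level through the bulk of genes. Library totals ran from 54572365 to 69764836 counts, and the knockdown moved much of the transcriptome: 71.7% of 16591 genes tested were called changed by edgeR's quasi-likelihood test at an adjusted p under 0.05, 35.2% higher and 36.5% lower in siSON. When total counts replaced TMM scaling, all log2 fold changes shifted by a median of -0.20, and 4441 genes were called higher and 7351 lower, against 5834 and 6054 with TMM.

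Leaving aside MATR3, which could not be read as a level, PTBP1 was the most abundant member in siControl. It was lower in every siSON library. PTBP1 (ENSG00000011304) lies on chromosome 19 from 797075 to 812327, plus strand, with up to 15 exons in a transcript. In replicate order, the siControl libraries held 309, 289 and 283 CPM, against 158, 164 and 163 for siSON. The siSON values lay close to each other and far below the lowest siControl value. The group means were 294 ± 13.9 CPM and 162 ± 2.80 CPM (SD, n = 3 each), so that 55.0% of the control level remained, with a log2 fold change of -0.86 (SE 0.05). Of its 21 annotated transcripts 7 retain an intron, and reads from such forms are counted for PTBP1 like those of the coding message.

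PTBP2 went the opposite way by a much larger factor. PTBP2 (ENSG00000117569) spans 96721665 to 96823738 on chromosome 1, plus strand, with up to 14 exons and no overlap with another gene's exons. The siControl libraries held 14.7, 14.2 and 11.4 CPM, which were 1027, 901 and 850 counts. The siSON libraries held 160.3, 148 and 148 CPM, or 9303, 7644 and 7529 counts. The lowest siSON library thus lay an order of magnitude above the highest siControl library, with means of 13.4 ± 1.79 and 152 ± 7.00 CPM (SD, n = 3 each). The fitted log2 fold change was 3.50 (SE 0.09), and the ratio of the group means was 11.3.

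PTBP3 was lower in siSON, like PTBP1 and unlike PTBP2. PTBP3 (ENSG00000119314), once named ROD1, lies on chromosome 9 from 112217716 to 112333667, minus strand, with up to 15 exons. Its siControl levels were 67.3, 77.4 and 66.8 CPM, and its siSON levels 25.9, 32.6 and 26.8 CPM. Replicate 2 was the highest library of each group, and the groups were well apart. The means were 70.5 ± 5.99 and 28.4 ± 3.66 CPM (SD, n = 3 each), a remainder of 40.3% and a log2 fold change of -1.31 (SE 0.10). The relative loss was larger for PTBP3 than for PTBP1; that difference was not tested.

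Counted against each other, PTBP2 went from a trace of the family to near parity with PTBP1. For every 100 PTBP1 counts there were 4.76, 4.90 and 4.02 PTBP2 counts in siControl replicates 1 to 3. In siSON replicates 1 to 3 there were 101, 90.6 and 91.0. This ratio does not depend on how libraries are scaled, since both genes are read from the same library.

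Because a longer message gives more reads, the paralogs were also compared per base of their merged exons, which are 6883 bases in PTBP1, 12937 in PTBP2 and 8239 in PTBP3. PTBP2 then made up 2.10%, 2.08% and 1.76% of the summed level of the 3 paralogs in siControl replicates 1 to 3, and 32.1%, 29.2% and 29.9% in siSON. The share of PTBP1 went from 81.6 ± 1.45% to 60.7 ± 0.977%, and that of PTBP3 from 16.4 ± 1.42% to 8.91 ± 1.05% (SD, n = 3 each). PTBP1 stayed the leading paralog on this scale in all 6 libraries. The PTBP2 share in siSON depends on the length taken for each gene: it was 24.9% with the longest transcript, 29.8% with the median coding transcript and 44.5% with no correction, against 30.4 ± 1.53% with merged exons. In siControl the same share was 1.98 ± 0.193% with merged exons and 1.53% to 3.54% under the other lengths.

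**Figure D1:**
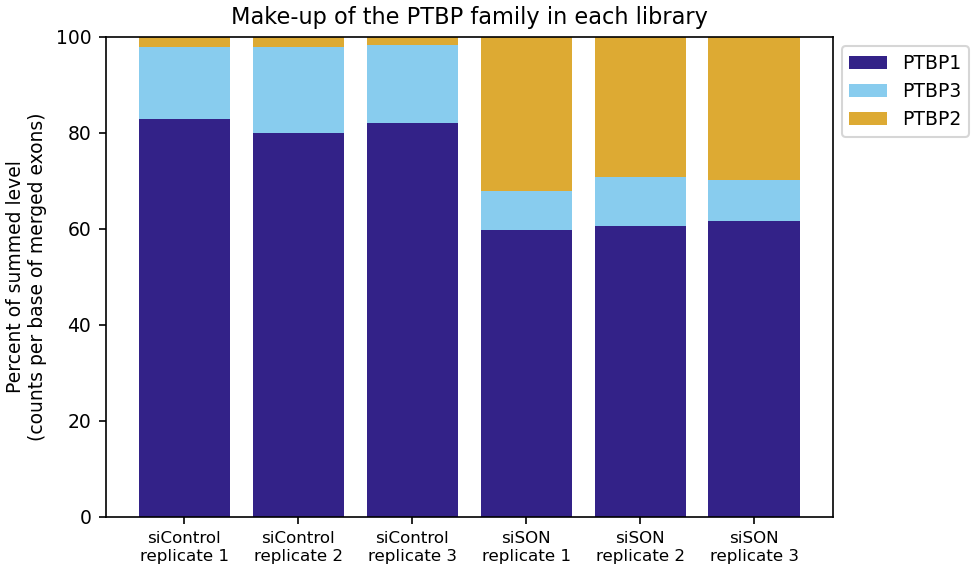
Share of PTBP1, PTBP3 and PTBP2 (stacked bars, percent) in the summed per-length level of the paralogs in each of the 6 libraries. PTBP2 takes 1.76% to 2.10% in the siControl libraries and 29.2% to 32.1% in the siSON libraries.

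The family as a whole was lower, since the added PTBP2 reads did not make up for those missing from PTBP1 and PTBP3. Summed over the paralogs, the siControl libraries held 391, 381 and 361 CPM and those of siSON 345, 344 and 338. Per kilobase of merged exons, the sums were 52.3 ± 2.11 and 38.7 ± 0.440 CPM per kb (SD, n = 3 each), and the groups did not overlap on either scale. These are levels relative to the rest of each library, so less of this RNA per cell and fewer cells making it cannot be told apart.

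Both raver genes were lower in siSON. RAVER1 encodes a PTBP1 co-repressor that shuttles between nucleus and cytoplasm and also binds vinculin. RAVER1 (ENSG00000161847; chromosome 19, 10316212 to 10333640, minus strand, up to 13 exons) stood at 42.6, 43.6 and 43.4 CPM in the siControl libraries, against 26.4, 26.5 and 28.3 for siSON. The siControl libraries were nearly level, and all siSON libraries lay below them. The means were 43.2 ± 0.504 and 27.1 ± 1.04 CPM (SD, n = 3 each), 62.7% of control, with a log2 fold change of -0.67 (SE 0.06). The gene AC011511.4 on the same strand shares 1693 of its 4981 exon bases and had 0 counts in all 6 libraries, and the antisense gene AC114271.1, with 47 to 214 counts, shares 205.

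RAVER2, which encodes the second raver protein, was less abundant and showed the larger relative difference. RAVER2 (ENSG00000162437) lies on chromosome 1 from 64745095 to 64833232, plus strand, with up to 12 exons, and shares 4 exon bases with JAK1 on the other strand. The siControl libraries held 22.1, 22.6 and 25.0 CPM, and those of siSON 9.39, 11.3 and 10.3. No siSON library reached a value close to those of the siControl libraries. The means were 23.2 ± 1.54 and 10.3 ± 0.947 CPM (SD, n = 3 each), 44.5% of control, with a log2 fold change of -1.17 (SE 0.09).

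**Figure D2:**
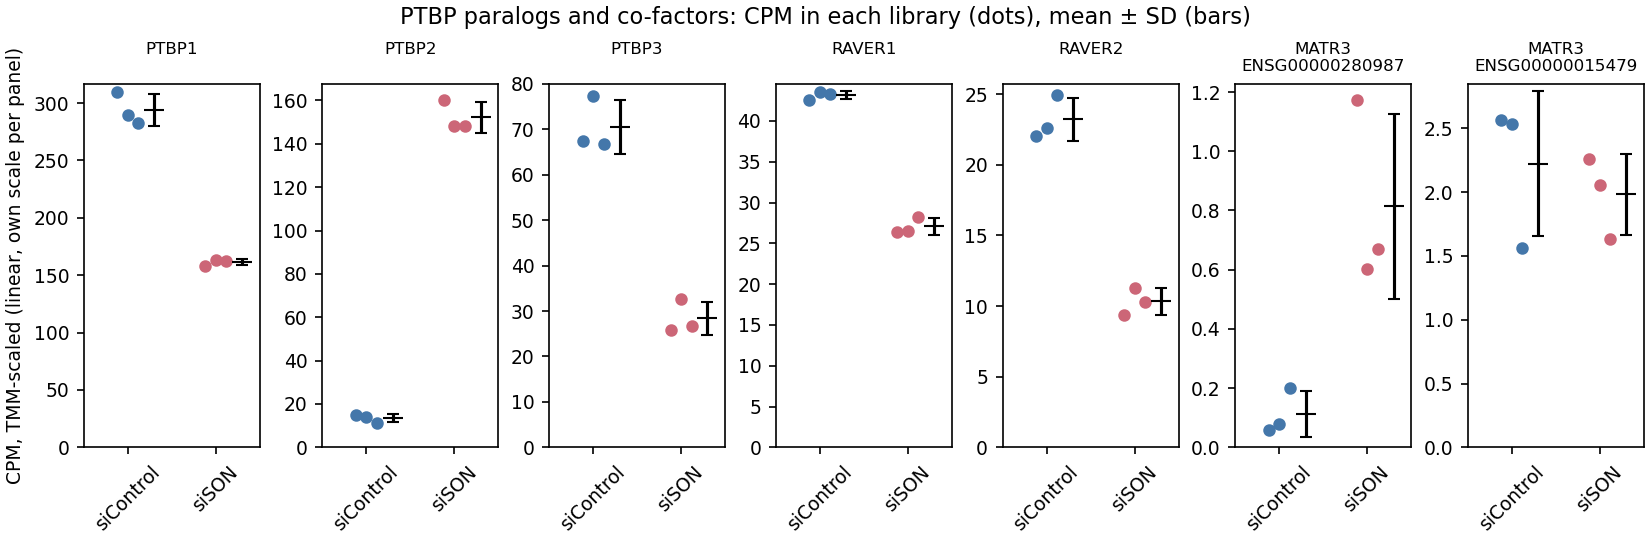
CPM of the 7 table rows in each library (dots; blue siControl, red siSON) with the mean and SD of each group (black bars), each panel on its own linear scale from 0. PTBP2 and the MATR3 row ENSG00000280987 are higher in siSON, PTBP1, PTBP3, RAVER1 and RAVER2 are lower, and the groups overlap for the MATR3 row ENSG00000015479.

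MATR3 could not be read as a level from these counts. Its 2 records lie on the plus strand of chromosome 5, ENSG00000280987 from 139273752 to 139331671 and ENSG00000015479 from 139293648 to 139331677. They have 5141 exon bases in common. Of the exon bases of ENSG00000280987, 90.7% are shared with a gene on the same strand, the lincRNA SNHG4 included, and of those of ENSG00000015479, 42.5% are. The submitters' processing notes name featureCounts, a program that by default leaves out reads overlapping several genes; the setting used is not given in the sources used here.

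The rows for MATR3 held few counts in every library. ENSG00000015479 had 179, 161 and 117 counts in siControl replicates 1 to 3 and 131, 106 and 83 in siSON. In CPM these were 2.57, 2.53 and 1.57 against 2.26, 2.06 and 1.63, so the groups overlapped. The log2 fold change was -0.16 (SE 0.22), within its error of 0, and its sign turned under cyclic loess normalization (0.23).

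ENSG00000280987 had 4, 5 and 15 counts in siControl replicates 1 to 3 and 68, 31 and 34 counts in siSON. The siSON libraries were all higher, at 1.17, 0.601 and 0.669 CPM against 0.0573, 0.0786 and 0.201 CPM. The log2 fold change was 2.82 (SE 0.49), and it was 3.55 without siControl replicate 3, the highest of its group. This row passed the filter on low counts through siSON: 3 siSON libraries and 1 siControl library reached the 0.164 CPM required. It has 588 exon bases that no other gene on its strand shares.

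**Figure D3:**
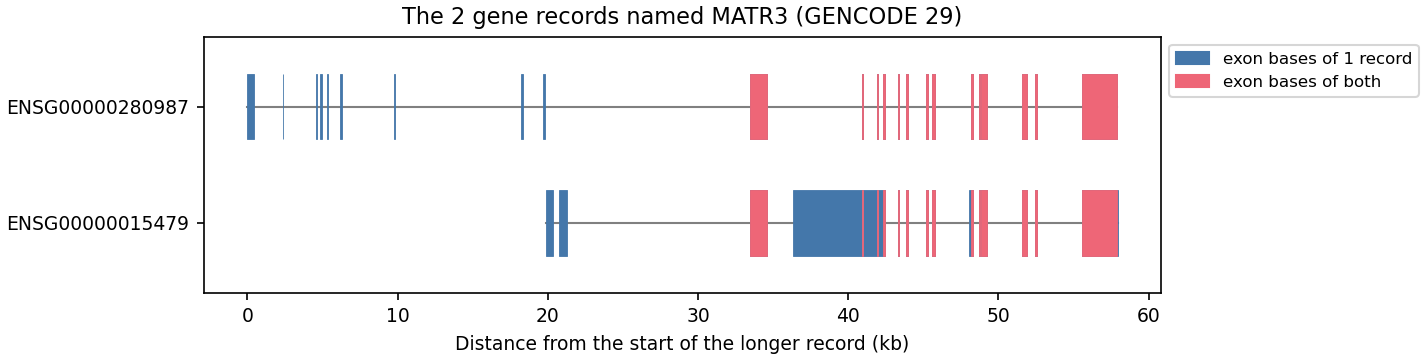
Exons of the 2 records named MATR3, drawn to scale along the distance in kb from the start of the longer record, with bases of 1 record in blue and bases of both records in red. The 5141 shared bases lie in the 3′ part of both records.

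All 7 rows passed the filter on low counts. The CPM of the groups did not overlap for 6 of them, where 75.1% of all genes tested had groups that did not overlap; since the set was chosen within this comparison, nothing is read from that count. The order of the per-length levels, taken without MATR3, differed between the groups. In siControl it was PTBP1 (42.7 ± 2.02 CPM per kb), RAVER1 (8.67 ± 0.101), PTBP3 (8.56 ± 0.727), RAVER2 (3.82 ± 0.254) and PTBP2 (1.04 ± 0.139; SD, n = 3 each). With this length RAVER1 and PTBP3 did not differ beyond their spread. In siSON it was PTBP1 (23.5 ± 0.407 CPM per kb), PTBP2 (11.8 ± 0.541), RAVER1 (5.43 ± 0.209), PTBP3 (3.45 ± 0.444) and RAVER2 (1.70 ± 0.156; SD, n = 3 each), with no overlap between neighbours. Among these genes PTBP2 thus moved from the last to the second place. This also held with the longest transcript and with the median coding transcript as the length (a comparison added after the data were seen). The places of RAVER1 and PTBP3 depend on that choice. The merged length of RAVER1 includes 1693 bases, of 4981, that AC011511.4 shares on the same strand. If reads over several genes were left out, the RAVER1 level per kb is understated. That setting is not given in the sources used here. With the median coding transcript PTBP3 lay above RAVER1 in siControl (20.7 ± 1.76 and 12.2 ± 0.142 CPM per kb; SD, n = 3 each), and in siSON their libraries overlapped (8.33 ± 1.07 and 7.64 ± 0.294 CPM per kb; SD, n = 3 each).

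Genes with the most similar profile were found by the Euclidean distance between log2 CPM profiles over the 6 libraries, each centred on its own mean, among 11583 other genes. CTH (a transsulfuration enzyme; distance 0.519), ATP2A1 (a calcium pump of the sarcoplasmic reticulum; 0.636) and OVGP1 (an oviduct glycoprotein; 0.732) were closest to PTBP2. CTH had 2.12, 2.69 and 2.11 CPM in the siControl libraries and 27.6, 19.1 and 21.5 CPM in siSON, and ATP2A1 and OVGP1 had log2 fold changes of 3.11 and 3.25. For PTBP1 the closest were STK17B, BCL2 and CCNG2 at distances of 0.0752, 0.0766 and 0.0777. Their log2 fold changes of -0.83, -0.87 and -0.85 lie around that of PTBP1, as the choice by distance ensures.

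Genes that share messages or complexes with the PTBP family were examined as 6 lists, here with the edgeR test over all 16591 genes, whose median log2 fold change was -0.03. Of the list of genes with exons under PTBP control, 15 of 19 tested (78.9%) were called changed, 8 higher and 7 lower, with a median log2 fold change of 0.09. This share was near the 71.7% called over all genes tested, of which 35.2% were higher and 36.5% lower. The split of the list was 5 and 7 with total counts and 4 and 11 under cyclic loess normalization, with medians of -0.11 and -0.21. Over all genes, 4441 were higher and 7351 lower with total counts (median -0.22). Under cyclic loess normalization 6037 of all genes were higher and 5629 lower (median 0.04). FLNA, which encodes the actin cross-linker filamin A, fell from 6624 ± 14.7 to 1738 ± 204 CPM (SD, n = 3 per group), which was -1.93 on the log2 scale (SE 0.08, edgeR adjusted p 4.40e-09). GABBR1, a GABA receptor subunit, fell by 1.16 on the log2 scale (edgeR adjusted p 0.000259). DLG4, the postsynaptic scaffold PSD-95 whose message depends on a PTBP-repressed exon, fell by 0.59 (edgeR adjusted p 7.33e-05) and was chosen after its values were seen. PKM, whose alternative exons PTBP1 selects, rose from 2528 ± 58.6 to 4166 ± 167 CPM (SD, n = 3 per group), which was 0.72 on the log2 scale (SE 0.05, edgeR adjusted p 1.41e-07), and CTTN, the actin regulator cortactin, rose by 0.62 (edgeR adjusted p 2.37e-06).

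Factors of nonsense-mediated decay, the pathway that removes the exon-skipped PTBP2 and PTBP1 messages, were called in a share near that of all genes. Of 16 tested, 12 (75.0%) were called, 10 higher (62.5%) and 2 lower (12.5%), with a median log2 fold change of 0.46. All genes had 71.7% called, 35.2% higher and 36.5% lower. Whether the directions differ from those of all genes was not tested. The split of the list was 8 and 3 both with total counts and under cyclic loess normalization, with medians of 0.27 in each. The medians of all genes were then -0.22 and 0.04. SMG5 rose from 98.4 ± 4.12 to 262 ± 14.5 CPM (SD, n = 3 per group), which was 1.41 on the log2 scale (SE 0.06, edgeR adjusted p 5.88e-09), and UPF2 rose by 1.29 (edgeR adjusted p 1.80e-08). SMG9 and UPF3A fell by 0.25 and 0.17 (edgeR adjusted p 0.00216 and 0.0215), and the call of UPF3A was lost without siSON replicate 2 (-0.18) or 3 (-0.15).

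Among 13 tested regulators of alternative exons, which often meet PTBP proteins on the same transcripts, 10 (76.9%) were called, 7 higher and 3 lower. Their median log2 fold change was 0.31. Of all genes, 71.7% were called, 35.2% higher and 36.5% lower. The split of the list was 4 and 4 with total counts (median 0.12) and 5 and 4 under cyclic loess normalization (median 0.14). The medians of all genes were then -0.22 and 0.04. MBNL2, of the muscleblind family, rose by 1.08 and HNRNPLL by 0.84 (edgeR adjusted p 4.64e-08 and 5.50e-06), while KHDRBS3 fell by 1.37 and KHDRBS1 by 0.32 (edgeR adjusted p 1.08e-06 and 0.000215). ESRP2, an epithelial splicing regulator and the leftmost point of its list in the plot of the lists, had 0.313 CPM on average in siControl and 0.0180 CPM in siSON, below the floor of 3 counts per library (0.0402 to 0.0590 CPM), and was chosen after its values were seen. Another 15 listed genes of this kind were too low to be tested (8 of them at 0 counts throughout).

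Of 18 other binders of pyrimidine-rich RNA, 15 (83.3%) were called, 10 higher and 5 lower, with a median log2 fold change of 0.18, beside 71.7% called, 35.2% higher and 36.5% lower among all genes. With total counts 6 of the list were higher and 6 lower (median -0.01), and under cyclic loess normalization 3 and 5 (median -0.09). The medians of all genes were then -0.22 and 0.04. PUF60, a partner of U2AF at 3′ splice sites, rose by 0.90 and the poly(C)-binding protein gene PCBP2 by 0.84 (edgeR adjusted p 8.14e-08 and 2.18e-07). PCBP4 fell by 1.79 and TIA1 by 0.57 (edgeR adjusted p 1.25e-08 and 7.42e-05). PCBP2 shares 32.7% of its exon bases with other genes on either strand.

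Of 11 genes for protein partners of PTBP1, raver proteins or matrin 3, 9 (81.8%) were called, 7 higher and 2 lower. Their median log2 fold change was 0.32. Among all genes 71.7% were called, 35.2% higher and 36.5% lower. With total counts the split of the list was 5 and 4 (median 0.13), and under cyclic loess normalization 2 and 5 (median -0.09). The medians of all genes were then -0.22 and 0.04. ILF2 and HNRNPM rose by 0.49 and 0.48 (edgeR adjusted p 3.39e-06 and 5.78e-06), and the paraspeckle gene PSPC1 fell by 1.38 (edgeR adjusted p 4.52e-08). DDX5, an RNA helicase gene, fell by 0.21 (edgeR adjusted p 0.0110), a call lost without siSON replicate 3 (-0.17).

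The repressor REST keeps neuronal genes silent outside neurons, and its phosphatase partners CTDSP1 and CTDSP2 belong to the circuit in which PTBP1 gives way to PTBP2 during neuronal differentiation. REST itself had 56.5 ± 3.51 and 59.2 ± 2.70 CPM in siControl and siSON (SD, n = 3 each). Its log2 fold change of 0.07 was not past the threshold (edgeR adjusted p 0.384); it was chosen after its values were seen. Of 12 genes of this list tested, 9 (75.0%) were called, 5 higher and 4 lower, with a median of 0.04. The share called was near the 71.7% among all genes, of which 35.2% were higher and 36.5% lower. The split of the list was 3 and 6 with total counts (median -0.16) and 3 and 5 under cyclic loess normalization (median -0.09). The medians of all genes were then -0.22 and 0.04. CTDSP1 fell from 57.6 ± 5.96 to 8.28 ± 1.20 CPM and CTDSP2 rose from 161 ± 7.77 to 409 ± 13.2 CPM (SD, n = 3 per group). Their log2 fold changes were -2.80 and 1.35 (edgeR adjusted p 5.85e-09 and 4.59e-09). The histone methyltransferase gene EHMT2 fell by 1.74 and the demethylase gene KDM1A rose by 0.69 (edgeR adjusted p 3.42e-08 and 5.32e-07).

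**Figure D4:**
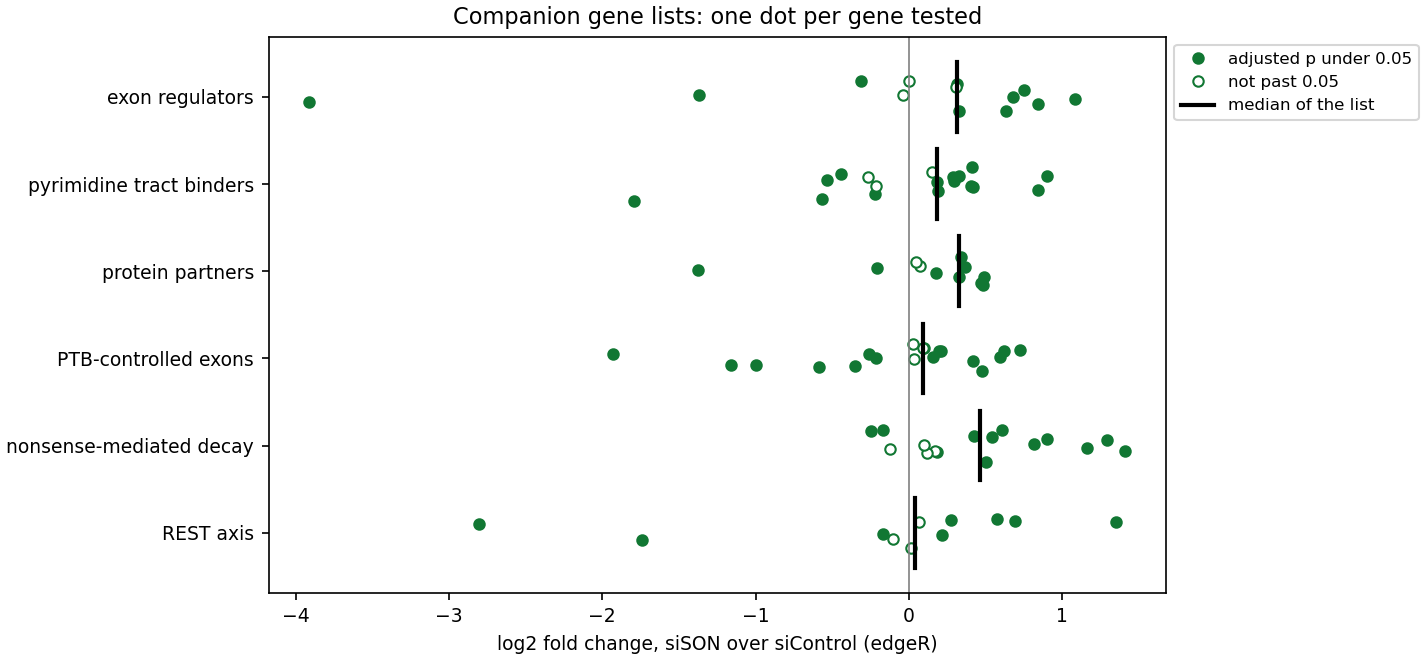
Log2 fold change (siSON over siControl) of each tested gene in the 6 lists, filled where the edgeR adjusted p was under 0.05, with the list median as a vertical bar; RCOR2, at 0 counts in all siSON libraries, is not drawn. Medians lie between 0.04 for the REST list and 0.46 for the decay factors, beside -0.03 for all genes tested.

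Because PTBP2 is the neuronal paralog, 14 neuron marker genes were read beside it. RBFOX3, ELAVL4, DCX and STMN2 had 0 counts in all 6 libraries. The summed level of the list was 40.0 to 44.1 CPM in siControl and 53.7 to 58.4 CPM in siSON, and MAP2, TUBB3 and SNAP25 made up 87.5% of it. Of 8 markers tested, 2 were called higher and 4 lower, with a median log2 fold change of -0.67. The share called, 75.0%, was near the 71.7% called over all genes tested, of which 35.2% were higher and 36.5% lower. MAP2 and SNAP25 rose by 0.85 each (edgeR adjusted p 1.27e-05 and 0.000142), and TUBB3 fell by 0.98 (edgeR adjusted p 9.96e-06). The other 3 called lower were rare: SLC17A7 went from 29 to 43 counts per siControl library to 2 to 7 per siSON library, SYP from 13 to 30 to between 1 and 5, and SYN1 from 11 to 34 to 0 (edgeR adjusted p 0.000672, 0.00899 and 0.000681). Whether this bears on PTBP2 was not tested.

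The labelled cell type was checked with 18 markers of pigment epithelium and of epithelial or mesenchymal cells. The list summed to 7922 to 9027 CPM in siControl and 8579 to 8675 CPM in siSON, 93.3% of it from VIM, KRT8 and CDH2. Of 11 tested, 10 (90.9%) were called, 7 higher and 3 lower, with a median log2 fold change of 0.52. Among all genes tested 71.7% were called, 35.2% higher and 36.5% lower. Whether the list differs from all genes was not tested. The pigment epithelium factors MITF, OTX2 and PAX6 rose by 0.52, 0.82 and 1.67 on the log2 scale (edgeR adjusted p 3.48e-05, 9.23e-07 and 3.09e-08). PMEL, a melanosome protein gene, LRAT, a visual cycle enzyme gene, and SERPINF1, which encodes the secreted factor PEDF, fell by 3.36, 2.62 and 1.29 (edgeR adjusted p 3.72e-07, 0.000251 and 0.00268), all from levels of 2.06 CPM or lower. VIM, KRT8 and CDH2 are not particular to pigment epithelium, and TYR, DCT and TTR had 0 counts in all libraries and RPE65, RLBP1 and TYRP1 were too low to be tested.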

How the data were processed

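The deposited table holds the authors' raw read counts, as whole numbers for each gene in each of the 6 libraries. Per the submitters' processing notes, cutadapt 1.16, STAR 2.5.2a, featureCounts 1.6.2 and DESeq2 1.28.1 were used with build hg38; annotation release, strand setting and treatment of reads over several genes are not given in the sources used here. All 58735 identifiers matched GENCODE release 29 (GRCh38), the source of positions, lengths and transcript sequences.

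The counts entered edgeR 4.0.16 (R 4.3.3): filterByExpr (minimum count 10), TMM scaling and a robust quasi-likelihood fit on the group over all 6 libraries, with Benjamini-Hochberg adjustment over all genes tested and a threshold of 0.05. Standard errors come from the log2 fold change and the quasi-likelihood F statistic (size of the change over root F). Totals of 54572365 to 69764836 counts put 3 counts at 0.0402 to 0.0590 CPM (counting error only). Alternatives were DESeq2 1.42.0, limma 3.58.1 (voom and cyclic loess), relative log expression (RLE) factors, total counts, other filters, a replicate block and leaving out each library.

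The members and lists were chosen with earlier results of these data known. Named genes were SON, PLK4, the members, in each list the 2 called genes with the largest rise and the 2 with the largest fall (mean log2 CPM of at least 1), and the 3 genes closest in profile to PTBP2 and to PTBP1 (prior count 2). PLK4 had 177 ± 12.4 CPM in siControl and 138 ± 23.3 CPM in siSON (SD, n = 3 each; log2 fold change -0.36, SE 0.11, edgeR adjusted p 0.0143); native and induced copies are not separated.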

Additional observations from a re-analysis of the deposited data

How the results depend on the processing

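The direction of PTBP1, PTBP2, PTBP3, RAVER1 and RAVER2 was kept in all alternatives; MATR3 (ENSG00000015479) turned to 0.23 under cyclic loess normalization. With total counts the log2 fold changes were -1.06 (PTBP1), 3.31 (PTBP2), -1.51 (PTBP3), -0.87 (RAVER1) and -1.37 (RAVER2), as all genes shifted by -0.20. Under cyclic loess they were -1.19 (PTBP1), 3.39 (PTBP2), -1.43 (PTBP3), -0.74 (RAVER1) and -1.05 (RAVER2). All genes then shifted by a median of 0.14, and the cause of the member differences was not tested. A filter at a mean count of at least 50 removed ENSG00000280987. It gave -0.92 (PTBP1), 3.45 (PTBP2), -1.37 (PTBP3), -0.73 (RAVER1) and -1.23 (RAVER2), where all shared genes shifted by a median of -0.06. Leaving out 1 library gave -0.90 to -0.84 for PTBP1, 3.39 to 3.55 for PTBP2, -1.41 to -1.23 for PTBP3, -0.71 to -0.64 for RAVER1, -1.23 to -1.09 for RAVER2, 2.47 to 3.55 for ENSG00000280987 and -0.37 to -0.03 for ENSG00000015479. The PTBP2 share was 1.53% and 24.9% (siControl and siSON) with the longest transcript and 3.54% and 44.5% without length correction. The median coding transcript, a length chosen after seeing the data, gave 1.96% and 29.8%.

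Over all genes, calls numbered 10226 to 12604 across alternatives. Both ends came from filters that changed the number tested. They were 10226 of 13136 with the mean count filter and 12604 of 29256 without a filter on low counts. With the replicate block 12313 genes were called, 14 of 16 decay factors, 11 binders of pyrimidine-rich RNA as higher, and PTBP2 had 3.51. Deviations of same-numbered libraries correlated at 0.194, 0.0461 and 0.118, and those of differently numbered libraries at -0.138 to 0.0286. Each library thus correlated most with the library of the same number in the other group, by a small margin for number 2. The block also lowered the SE of PTBP2 from 0.095 to 0.068 and of PTBP3 from 0.096 to 0.055. The library names in the deposited counts also carry a number marked S, and those of same-numbered libraries follow directly on each other. Whether the replicate numbers pair the libraries was not tested, and the main fit has no block. Higher calls with total counts were 4 (exon regulators), 6 (pyrimidine binders), 5 (PTBP-controlled exons) and 3 (REST), with 4 lower calls for protein partners. Under cyclic loess, 8 pyrimidine binders were called, 3 higher; protein partners had 2 higher and 5 lower, PTBP-controlled exons 4 and 11, and REST genes 3 higher. REST genes had 3 higher calls with the mean count filter and 3 to 5 when 1 library was left out; lower calls were then 1 to 2 for protein partners and 1 to 2 for decay factors. Of 364 refits of 26 named genes (SON, PLK4 and those with the largest rise or fall in each list), 361 kept direction and call. The members and the genes closest in profile were not in this count.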
